A study of Mus musculus with 9 samples.

Results

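The GIMAP family was followed here through the 8 rows of the deposited tables named Gimap1, Gimap3, Gimap4, Gimap5, Gimap6, Gimap7, Gimap8 and Gimap9, out of 53172 gene names in all. The members were taken by name, without a threshold on a measured value. RNA-seq was performed on bone marrow (BM) from 9 mice in 3 groups, with 3 mice per group. In the BMT group, recipients received 500000 BM cells one day after 9.5 Gy of whole-body irradiation. In the group labelled CDSCs, which the paper calls isoCDSCs-T, irradiated recipients received 500000 cells freshly digested from the costal cartilage of neonatal mice. Both groups were sampled 2 weeks after transplantation, and the Health group held normal mice of the same age without a transplant. Recipients were wild-type CD45.2 C57BL/6J mice of 16 weeks, and donors carried CD45.1 or ZsGreen. The methods allow neonatal or adult donors for BMT, and which were used for these libraries is not given. The cartilage digest was given without sorting, and the paper describes it as mostly CD45-CD51+ cells.

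GIMAP proteins (GTPases of immunity-associated proteins) are small GTP-binding proteins that sit on the membranes of intracellular organelles, mostly in lymphocytes. They are best known for keeping naive T and B cells alive, and mice that lack Gimap5 lose most of their peripheral lymphocytes. The genes lie side by side on mouse chromosome 6, and some members are also expressed in endothelial cells. The methods state that CD45+ and CD45- marrow cells were separated with magnetic beads and sequenced in equal amount. Their data were then merged at equal depth, while the labels describe all marrow cells. Where the methods hold, this procedure set the CD45+ share of a library. Levels of leukocyte, lymphocyte or endothelial genes then need not follow the make-up of the marrow. Because these libraries were made from a mixture of marrow cells, fewer cells of a type and less RNA per cell cannot be told apart.

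In the GENCODE M21 annotation of GRCm38, the build named in the submitters' processing notes, the 8 genes run from chr6:48647234 (the start of Gimap8) to chr6:48770851 (the end of Gimap3). Gimap3 and Gimap6 are on the minus strand, and the other 6 members are on the plus strand. The gene model Gm28053 (chr6:48718607-48752644) spans Gimap7, Gimap1 and part of Gimap5 on the same strand, and Gimap1os (chr6:48738346-48741444) runs antisense across part of Gimap1. Whether strand was used in counting is not given in the sources used here, so reads on these overlapping models could have been split or dropped.

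The promoters of Gimap5 and Gimap7 are printed because the only Gimap row that passed a test was the one named Gimap5, and because exons of Gimap7 were found at the offset described below. Both windows run from 250 bases before to 50 bases after the gene start, are from RefSeq (GRCm38.p6) and are read 5′ to 3′ on the plus strand. The Gimap5 window is chr6:48745947-48746246 and the Gimap7 window is chr6:48718371-48718670. Capitals mark matches on either strand to TGTGGT, a core recognised by RUNX factors, or to AGGAAG, a core recognised by ETS factors.
Gimap5 promoter: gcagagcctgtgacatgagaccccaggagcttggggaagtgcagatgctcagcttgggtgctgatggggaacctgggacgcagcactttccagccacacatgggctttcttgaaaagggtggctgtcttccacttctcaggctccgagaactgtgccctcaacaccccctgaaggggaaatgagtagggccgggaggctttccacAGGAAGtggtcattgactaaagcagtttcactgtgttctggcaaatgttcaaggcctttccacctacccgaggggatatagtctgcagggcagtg
Gimap7 promoter: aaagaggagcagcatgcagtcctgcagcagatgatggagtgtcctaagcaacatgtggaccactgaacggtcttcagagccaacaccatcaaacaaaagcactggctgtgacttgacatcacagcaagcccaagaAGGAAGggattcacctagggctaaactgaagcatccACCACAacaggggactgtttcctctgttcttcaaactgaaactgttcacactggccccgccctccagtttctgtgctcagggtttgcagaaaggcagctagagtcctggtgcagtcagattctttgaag
The Gimap5 window held 1 match to AGGAAG and 0 to TGTGGT, and the Gimap7 window held 1 of each. RefSeq gave 9 windows for the 8 members, of which a pair for Gimap8 overlap each other. AGGAAG or its reverse complement was in 7 of the 9 windows and in 35.4% of all 32851 promoter windows. TGTGGT or its reverse complement was in 3 of the 9 and in 16.8% of all windows. A match of these letters is a description of the window and not a bound site.

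Before levels are given, a limit on the row names has to be stated. Library totals were 8741155 to 10181289 counts and overlapped between groups. The names of several genes that marrow expresses strongly carried almost no counts. Hbb-bs, Hbb-bt (adult beta globins), S100a8 and Camp (neutrophil granule and cytosol proteins) were at 0 in all 9 mice, Mpo had 1 to 3 counts, and the translation factor Eef1a1 had 0 to 3. The row with the most counts was Olfr648, an olfactory receptor gene 365 kb from Hbb-bt, with a mean of 350395 counts. Of the T cell receptor chains, the Cd3e row had 2598 to 3551 counts while the Cd3d row, its partner in the same complex, had 0 to 4. Cd74, the invariant chain that B cells use in antigen presentation, was at 0 in every mouse. For all 8 Gimap rows, the gene length implied by the ratio of count to TPM was equal to the exon length in GENCODE M21, so the rows carried the gene models of their names.

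Where counts lay relative to exons was then measured on chromosome 6 around the family, a calculation added after the values were seen. For 574 other rows that start between 35 and 60 Mb, the count per kb of exon was compared with the share of the row's exon bases that fell on protein-coding exons once the row was moved by a fixed offset. Over 401 offsets up to 100 kb to either side, in steps of 500 bases, Spearman's rho had a median of 0.298 and was 0.290 at offset 0. It was highest, at 0.490, with rows moved 23.0 kb toward lower coordinates, and 0.480 at an offset of -25000 bases. These rows share libraries and partly overlap, so rho is a description across rows.

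**Figure D1:**
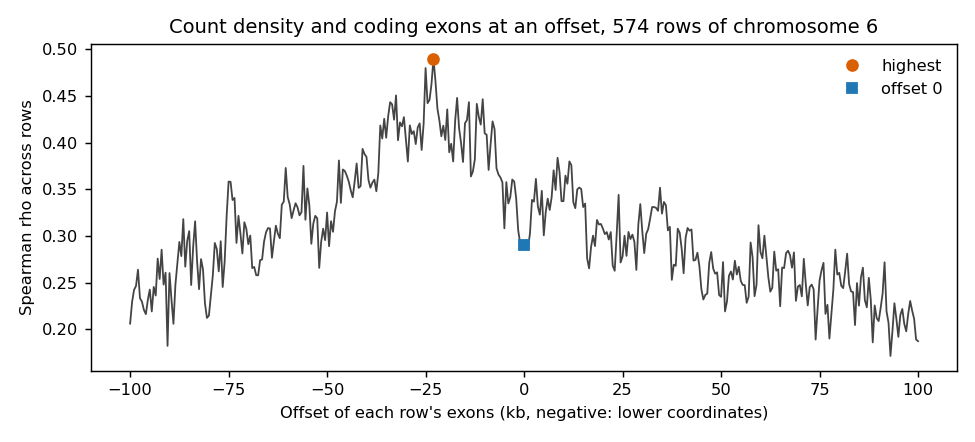
Spearman's rho across 574 rows of chromosome 6 (vertical axis) between count density and the share of a row's exon bases on protein-coding exons after the row was moved by the offset on the horizontal axis (kb). The profile reached 0.490 at -23.0 kb (circle) and was 0.290 at offset 0 (square).

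At the offset of -23000 bases the counted Gimap rows fell on exons of other members. The Gimap3 row covered 1422 bases of Gimap1 exons and 210 bases of Gimap5 exons, which together were 63.3% of its length. The Gimap5 row covered 1216 bases of Gimap7 exons, 29.3% of its length. The Gimap6 row covered 376 bases of Gimap9, and the Gimap9 row covered 73 bases of Gimap8. The share of a row's length on any protein-coding exon at this offset was 63.3% for Gimap3, 34.7% for Gimap5, 10.8% for Gimap6 and 4.45% for Gimap9. In the low rows it was 22.1% for Gimap1, 22.2% for Gimap8, 2.37% for Gimap7 and 0 for Gimap4. Counts did not follow these shares in every row. The mean was 373 counts for Gimap3, 187 for Gimap5, 67.4 for Gimap6 and 108 for Gimap9, and 7.67 for Gimap1 and 7.33 for Gimap8. At -25000 bases the rows Gimap3, Gimap5 and Gimap6 still fell on Gimap1, Gimap7 and Gimap9, with 47.5%, 6.39% and 43.4% of their length on protein-coding exons, while the Gimap9 row fell on 0 bases of them. From which transcripts the reads of a Gimap row came was not tested. All values below therefore belong to the row of that name, and none is read as a level of lymphocytes.

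Of the 8 rows, 4 had a mean of at least 10 counts and also passed edgeR's filter on low counts: Gimap3, Gimap5, Gimap6 and Gimap9. On the TPM scale, which corrects for gene length, the Gimap3 row was highest with a mean of 32.2 over the 9 mice (range 19.7 to 54.6). The Gimap9 row followed with 14.7 (8.25 to 22.2), then Gimap5 with 10.2 (6.07 to 18.1) and Gimap6 with 4.35 (2.98 to 6.38). The ranges of neighbours in this order overlapped, and that of Gimap3 lay above that of Gimap5. The other 4 rows had mean TPM of 0.776 (Gimap7), 0.559 (Gimap1), 0.449 (Gimap8) and 0.0259 (Gimap4). Of all counts under the 8 names, 49.2% were in the Gimap3 row, 24.7% in Gimap5, 14.2% in Gimap9 and 8.89% in Gimap6.

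The Gimap5 row was higher in CDSCs than in Health and was the only member that passed a test in any comparison. Gimap5, a protein of lysosomal and other internal membranes, is needed for the survival of naive T cells. Its row had 12.8, 13.0 and 13.8 CPM (counts scaled by library total and by edgeR's TMM factors) in Health mice 1 to 3. It had 15.0, 12.7 and 21.6 CPM in BMT mice 1 to 3 and 31.6, 21.9 and 33.9 CPM in CDSCs mice 1 to 3. In CPM every CDSCs mouse lay above every Health and every BMT mouse, while BMT and Health overlapped. The separation from BMT was lost on the TPM scale, where CDSCs mouse 2 was at 11.7 and BMT mouse 3 at 11.8, and in raw counts (215 and 226). The raw counts behind these values were 107 to 131 in Health, 123 to 226 in BMT and 215 to 323 in CDSCs. Group means were 29.1 ± 6.38 CPM in CDSCs, 16.4 ± 4.62 CPM in BMT and 13.2 ± 0.557 CPM in Health (SD, n = 3 mice each).

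The difference between CDSCs and Health for Gimap5 was 2.20-fold (log2 fold change 1.14, standard error 0.231, adjusted p = 0.0100 by edgeR's quasi-likelihood test, adjusted by Benjamini-Hochberg over 12572 genes). In this comparison 17.0% of the genes tested passed at an adjusted p of 0.05, 8.69% with the higher level in CDSCs and 8.28% with the higher level in Health, and the 1 of 4 tested members is read against these shares. At an unadjusted p of 0.05 the share was 32.9% of genes and 1 of 4 members. Over the 16 alternative fits the adjusted p of this difference ranged from 1.83e-05 to 0.0441, and all 16 were under 0.05. Over BMT, the CDSCs level of the Gimap5 row was higher by 0.82 on the log2 scale (standard error 0.228, adjusted p = 0.110 in the same edgeR test). This comparison did not pass, although 3 of 16 alternatives did, with adjusted p from 0.0138 to 0.326. Every CDSCs mouse was above every BMT mouse for 11.0% of the genes tested and above every Health mouse for 16.7%, and mice of the pair did not overlap in either direction for 22.5% and 34.2%. BMT over Health was 0.32 on the log2 scale for Gimap5 (standard error 0.232, adjusted p = 0.534 in the same edgeR test).

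The Gimap3 row carried the most counts and varied most between mice of a transplanted group. Gimap3 is a close relative of Gimap5 that also takes part in the survival of T cells and in the segregation of mitochondrial DNA. Its row had 25.8, 36.6 and 30.3 CPM in Health mice 1 to 3, 32.4, 27.6 and 62.1 CPM in BMT mice 1 to 3, and 65.3, 32.6 and 34.5 CPM in CDSCs mice 1 to 3. A single mouse of each transplanted group, BMT mouse 3 and CDSCs mouse 1, lay far above the other 7 mice, and all groups overlapped. The log2 fold change was 0.52 for CDSCs over Health (standard error 0.342, adjusted p = 0.323) and 0.40 for BMT over Health (standard error 0.342, adjusted p = 0.603) in the same edgeR test. Between CDSCs and BMT it was 0.12 (standard error 0.339, adjusted p = 0.883 in the same edgeR test), and its sign turned to -0.28 without CDSCs mouse 1. Without that mouse CDSCs over Health fell to 0.12, and without BMT mouse 3 BMT over Health was -0.0023.

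The Gimap9 row had its lowest mean in BMT, in a difference that did not pass a test. It had 12.5, 15.9 and 8.66 CPM in Health mice 1 to 3, 6.08, 7.86 and 10.5 CPM in BMT mice 1 to 3, and 15.9, 8.44 and 16.4 CPM in CDSCs mice 1 to 3. The groups overlapped, because CDSCs mouse 2 and Health mouse 3 lay within the BMT range. The log2 fold change of CDSCs over BMT was 0.73 (standard error 0.322, unadjusted p = 0.0465, adjusted p = 0.261 in edgeR's quasi-likelihood test), and 18.6% of all genes tested had an unadjusted p-value under 0.05 in this comparison. BMT over Health was -0.60 on the log2 scale (standard error 0.323, adjusted p = 0.392 in the same edgeR test), which did not pass. CDSCs and Health differed by 0.13 on the log2 scale (standard error 0.318, adjusted p = 0.800 in the same edgeR test).

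The Gimap6 row showed no detectable difference between groups. Gimap6 binds a protein of the autophagy machinery and is required for the persistence of T cells. Its row had 6.20, 7.36 and 6.44 CPM in Health mice 1 to 3, 6.62, 5.38 and 9.85 CPM in BMT mice 1 to 3, and 8.12, 4.68 and 9.01 CPM in CDSCs mice 1 to 3. The mean was 7.27 ± 2.29 CPM in CDSCs, 7.28 ± 2.31 CPM in BMT and 6.67 ± 0.609 CPM in Health (SD, n = 3 mice each). Log2 fold changes were -0.01 for CDSCs over BMT, 0.12 for CDSCs over Health and 0.13 for BMT over Health, with standard errors of 0.299 to 0.302. The adjusted p-values in the same edgeR test were 0.992, 0.810 and 0.876.

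**Figure D2:**
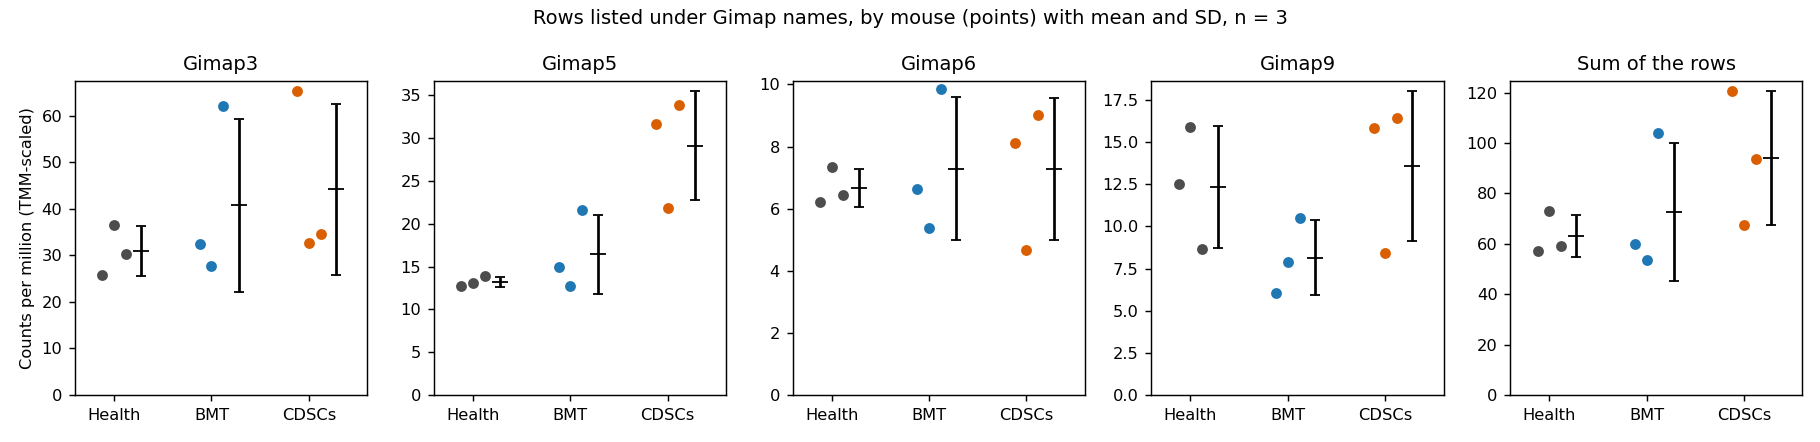
CPM (TMM-scaled, vertical axes from 0) of the 4 counted Gimap rows and of their sum in each mouse of Health, BMT and CDSCs (points), with the group mean and SD (n = 3). In the Gimap5 panel the CDSCs mice sit at 21.9 to 33.9 CPM, above all mice of both other groups on this scale (on the TPM scale CDSCs mouse 2 is below BMT mouse 3), and in the Gimap3 panel BMT mouse 3 and CDSCs mouse 1 stand apart at 62.1 and 65.3 CPM.

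**Figure D3:**
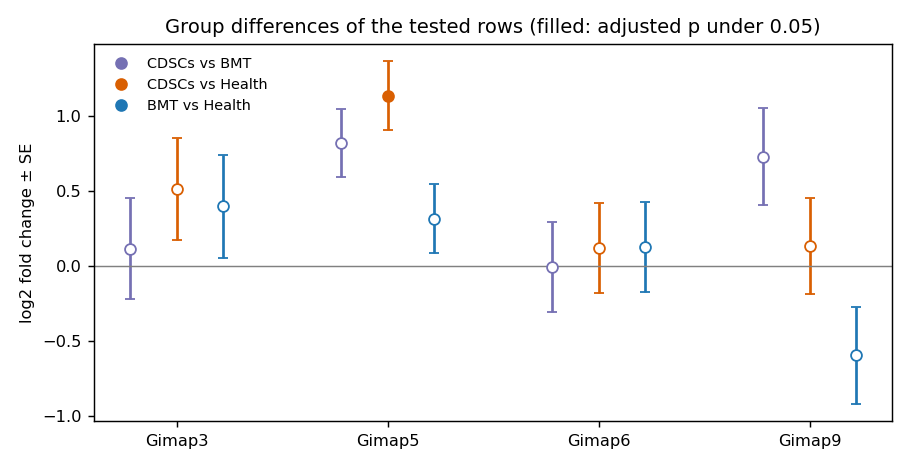
Log2 fold change with its standard error (vertical axis) of the 4 tested Gimap rows in 3 comparisons from edgeR's quasi-likelihood fit, with filled points for an adjusted p-value under 0.05. Only Gimap5 in CDSCs against Health, at 1.14, is filled.

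Of the 4 tested members, 0 passed between CDSCs and BMT, where 1.03% of all genes tested passed (0.326% higher in CDSCs, 0.700% higher in BMT), and 0 passed between BMT and Health, where 2.44% did (0.994% higher in BMT, 1.45% higher in Health). With an unadjusted p-value under 0.05, Gimap5 and Gimap9 passed between CDSCs and BMT, where 18.6% of all genes tested did, and no member did between BMT and Health, where 16.8% of all genes tested did. DESeq2 called 1 member between CDSCs and BMT, where it called 5.62% of all genes tested, and 0 between BMT and Health, where it called 5.64%. The median log2 fold change of the 4 tested members was 0.42 for CDSCs over BMT, 0.32 for CDSCs over Health and 0.22 for BMT over Health. The medians of all genes tested were 0.01, -0.02 and -0.02. The comparisons with Health share the same 3 Health mice, and those with CDSCs share the same 3 CDSCs mice.

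The remaining rows were too low for the test above. Gimap7, a GTPase associated with lipid droplets, had 16, 22 and 4 counts in Health mice 1 to 3, 3, 2 and 9 counts in BMT mice, and 7, 4 and 6 counts in CDSCs mice. Health mouse 3 lay within the range of the transplanted mice. In the fit without a filter on low counts its log2 fold change was -1.64 for BMT over Health (adjusted p = 0.219) and -1.34 for CDSCs over Health (adjusted p = 0.217 from the same edgeR test). Gimap8, an unusually long member with several GTP-binding domains, had 8 to 14 counts in BMT, 5 to 9 in CDSCs and 2 to 6 in Health. Every BMT mouse was above every Health mouse for Gimap8 in CPM, as for 15.2% of all genes tested (29.1% did not overlap in either direction), and the adjusted p of BMT over Health without the filter was 0.574 in edgeR's quasi-likelihood test. Gimap1, which is required for the development and maintenance of mature T and B cells, had 5 to 12 counts per mouse in overlapping ranges. Gimap4, which speeds the death of T cells, had 0 counts in Health and BMT and at most 1 in CDSCs mice, below the floor of 3 counts, which equals 0.295 to 0.343 CPM of the library total and covers counting error only.

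The counted rows were also added within each mouse, and the sum was compared without a test. The summed counts were 480 to 693 in Health, 518 to 1088 in BMT and 665 to 1235 in CDSCs. The sum was 57.3, 72.8 and 59.3 CPM in Health mice 1 to 3, 60.1, 53.6 and 104.1 CPM in BMT mice 1 to 3, and 120.9, 67.6 and 93.8 CPM in CDSCs mice 1 to 3. The lowest CDSCs mouse was under the highest Health mouse, and BMT mouse 3 was above CDSCs mice 2 and 3, so no pair of groups was separated. The mean was 94.1 ± 26.6 CPM in CDSCs, 72.6 ± 27.5 CPM in BMT and 63.1 ± 8.47 CPM in Health (SD, n = 3 mice each). The log2 ratio of means was 0.58 for CDSCs over Health, 0.37 for CDSCs over BMT and 0.20 for BMT over Health. The spread of the log2 sums within groups (pooled SD) was 0.325, 0.468 and 0.385 for the same pairs. Without the Gimap5 row, a setting chosen after seeing the data, the ratio of CDSCs over Health was 0.38, and without BMT mouse 3 the ratio of BMT over Health was -0.15.

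The share of the sum that came from the Gimap5 row was compared without a test, and partly restates the level of that row given above. Gimap5 supplied 26.2%, 32.3% and 36.1% of the summed counts in CDSCs mice 1 to 3. It supplied 20.8% to 24.9% in BMT mice and 17.9% to 23.4% in Health mice, so the CDSCs mice did not overlap with either group. The nearest were CDSCs mouse 1 at 26.2% and BMT mouse 1 at 24.9%. In CPM, mice did not overlap for 22.5% of genes tested between CDSCs and BMT and for 34.2% between CDSCs and Health. Gimap9 supplied a mean of 19.4% in Health, 11.6% in BMT and 14.4% in CDSCs, and Gimap3 supplied 48.8%, 55.1% and 46.4%. Gimap6 supplied 10.6%, 10.2% and 7.75%, and its share was 6.72% to 9.60% in CDSCs mice, below the 3 Health mice. Such shares show unequal change among the rows and not which of them changed.

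**Figure D4:**
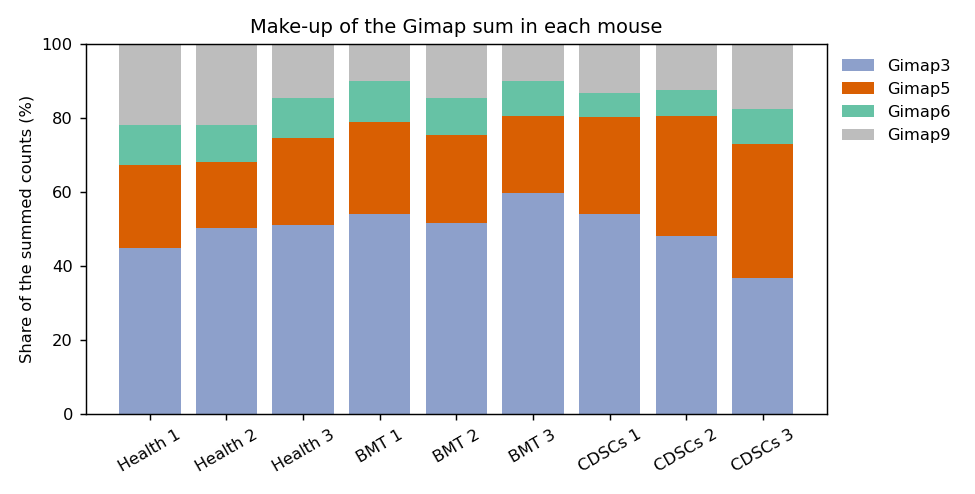
Share of the summed counts (%, vertical axis from 0) that each of the 4 counted Gimap rows supplied in each of the 9 mice. The Gimap5 part is 26.2% to 36.1% in the CDSCs mice and 17.9% to 24.9% in the other 6.

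Across the 9 mice, Pearson's r of log2 CPM was positive for all 6 pairs of counted rows. It was 0.69 for Gimap3 and Gimap6, 0.63 for Gimap3 and Gimap5, and 0.56 for Gimap6 and Gimap9. It was 0.50 for Gimap5 and Gimap6, 0.47 for Gimap5 and Gimap9, and 0.38 for Gimap3 and Gimap9. The genes whose log2 CPM was most like that of the sum across the 9 mice were Rusf1 (r = 0.95), Olfr743 (0.95), Gm14121 (0.94), Dyrk1b (0.93) and Mfhas1 (0.93). These points share libraries and groups, and r is given as a description.

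Genes next to the family were read in the same fit. Of 20 neighbours in RefSeq, 10 on each side, 18 were in the count table and 6 were tested. Between CDSCs and Health, 3 of the 6 were higher in CDSCs, beside 8.69% of all genes tested. These were Repin1 (log2 fold change 1.79, adjusted p = 0.00907) and Zfp775 (0.72, adjusted p = 0.0436), a pair of zinc finger genes before the family, and Gm7932 (0.82, adjusted p = 0.0300) after it, in edgeR's quasi-likelihood test. Repin1 passed in all 16 alternative fits. Zfp775 passed in 10 of 16, and lost the call without BMT mouse 1, CDSCs mouse 3 or any Health mouse, and Gm7932 passed in 12 of 16 and lost it without CDSCs mouse 1 or Health mouse 1 or 2. No neighbour passed between CDSCs and BMT or between BMT and Health in that test. Within the family, Gm28053, which overlaps Gimap7 and Gimap5, had 94 to 145 counts in Health, 66 to 172 in BMT and 57 to 112 in CDSCs. Its log2 fold change of CDSCs over Health was -0.76 (standard error 0.361, adjusted p = 0.172 in the same edgeR test), opposite in sign to that of Gimap5.

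Lists of lymphocyte genes were counted beside the family. Of 25 T cell genes, 11 were tested, and only Cd4, the coreceptor of helper T cells, was higher in CDSCs than in Health (log2 fold change 0.90, adjusted p = 0.0466 in the same edgeR fit as all values of this paragraph). Of 14 NK cell genes, 3 were tested, and Ncr1, an activating receptor, was higher in CDSCs than in Health (1.63, adjusted p = 0.00913). Of the 19 mature B cell genes in the table, 6 were tested. Cd37, a membrane protein of mature B cells, was higher in CDSCs than in Health (0.53, adjusted p = 0.0398). Fcer2a, the low-affinity IgE receptor of mature B cells, had means of 0.376 CPM in CDSCs, 2.50 CPM in BMT and 11.9 CPM in Health, and was lower in CDSCs (adjusted p = 0.000564) and in BMT (adjusted p = 0.0266) than in Health. Of 12 early B cell genes, 5 were tested, and Vpreb3 was lower in CDSCs than in Health (-1.54, adjusted p = 0.0275). In the list of IL-7 receptor signalling, BCL-2 family and naive lymphocyte trafficking genes, the setting in which GIMAP proteins are usually discussed, 8 of 22 were tested. Of these, Stat5b, which carries the IL-7 signal, was higher in CDSCs than in Health (0.93, adjusted p = 0.0317), and 0 were lower. The median log2 fold change of these 8 was 0.12 for CDSCs over Health, -0.17 for CDSCs over BMT and 0.22 for BMT over Health. No gene of these 5 lists passed between CDSCs and BMT in this test, although some did in alternatives. With DESeq2 2 mature B cell genes passed, and with the likelihood ratio test 2 mature B and 1 early B cell gene did. Without the low-count filter 1 T cell, 3 mature B cell, 2 early B cell and 1 survival gene passed. Without CDSCs mouse 1 the count was 1 T cell, 1 early B cell and 1 survival gene, and without CDSCs mouse 3 it was 1 mature B cell gene. Of all genes tested, the share that passed in these settings was, in the same order, 5.62%, 5.81%, 4.46%, 1.15% and 3.74%. Against the background share of 17.0% for CDSCs over or under Health, the counts were 1 of 11, 1 of 3, 2 of 6, 1 of 5 and 1 of 8. The lists were chosen with earlier results of these data known, so these counts are a description only.

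Most of these calls were lost in some fits with a mouse left out. Over all genes tested, calls between CDSCs and Health went from 2134 to between 1071 and 1879 on leaving out a Health or BMT mouse. On leaving out CDSCs mouse 1, 2 or 3 they were 2640, 1190 and 2287. A lost call therefore does not show that the mouse left out carried the difference. Against Health, the CDSCs call of Ncr1 held in all 16 alternative fits and that of Fcer2a in all 15 in which it was tested. The call of Cd4 held in 7 of 16 and was lost on leaving out any mouse but CDSCs mouse 3 or Health mouse 3. Cd37 held in 8 of 16 and was lost without BMT mouse 1, CDSCs mouse 2 or 3, or any Health mouse. Stat5b held in 10 of 16 and was lost without CDSCs mouse 2 or any Health mouse, and Vpreb3 held in 11 of 16 and was lost without BMT mouse 1, CDSCs mouse 2, or Health mouse 1 or 2. The lower level of Fcer2a in BMT than in Health held in 10 of the 15 in which it was tested and was lost without BMT mouse 1 or 2 or Health mouse 1 or 2. With the replicate number as a block, the calls of Cd4, Cd37 and Stat5b and that of Fcer2a between BMT and Health were lost.

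The summed level of the T cell list was 849 to 913 CPM in CDSCs, 842 to 970 CPM in BMT and 823 to 946 CPM in Health, with Cd2, Lat and Trat1 at 0 in every mouse. That of the NK cell list was 47.9 to 76.9 CPM in CDSCs, 28.2 to 55.8 CPM in BMT and 30.1 to 33.5 CPM in Health, with 5 of its 14 genes at 0, including Nkg7 and Gzma. Of the mature B cell list, 6 of 19 genes were at 0, and its sum was 513 to 1954 CPM in CDSCs, 616 to 1055 CPM in BMT and 688 to 841 CPM in Health. Much of this sum was the Pax5 row, with means of 662 CPM in CDSCs, 345 CPM in BMT and 282 CPM in Health. Pax5 did not pass the edgeR test for CDSCs against BMT or Health (adjusted p = 0.572 and 0.327). The early B cell list summed to 56.5 to 71.5 CPM in CDSCs, 95.6 to 142.5 CPM in BMT and 78.6 to 86.7 CPM in Health, although only 1 of its 5 tested genes passed against Health and 0 against BMT. In that list the Dntt row had means of 8.83 CPM in CDSCs, 52.0 CPM in BMT and 16.1 CPM in Health. Bst1 had 31.4 CPM in CDSCs and 46.2 CPM in BMT. Neither passed between CDSCs and BMT in the edgeR test (adjusted p = 0.113 and 0.677). The sum therefore does not show a shift of the whole list. Ebf1, a B-lineage transcription factor, had log2 fold changes of 0.99 for CDSCs over BMT and 0.64 for CDSCs over Health, which did not pass the edgeR test (adjusted p = 0.401 and 0.481). The leukocyte list summed to 90.2 to 126 CPM in CDSCs, 119 to 135 CPM in BMT and 159 to 181 CPM in Health. The endothelial list summed to 286 to 324 CPM in CDSCs, 313 to 342 CPM in BMT and 339 to 375 CPM in Health. The part of these cell types in the Gimap5 difference was not tested. In the other lists, CDSCs against Health, where 8.28% of all genes tested were lower in CDSCs and 8.69% higher, gave 2 of 8 endothelial genes lower (Pecam1 and Egfl7), 2 of 6 erythroid genes lower (Tfrc and Gata1), and 1 of 3 leukocyte genes lower (Ptprc). It gave Mmp8 lower and Ltf higher among 4 neutrophil genes, and 0 of 4 monocyte and 0 of 3 stem and progenitor genes in either direction. Mmp8, a neutrophil collagenase, was also lower in CDSCs than in BMT, with means of 591 CPM in CDSCs, 2968 CPM in BMT and 3189 CPM in Health. Ltf was also higher in BMT than in Health, with means of 0.489 CPM in CDSCs, 1.41 CPM in BMT and 0.0350 CPM in Health. The Ltf row had 0 to 16 counts per mouse, and its Health mean lay below the floor of 3 counts (0.295 to 0.343 CPM). Both Ltf calls therefore rest on values near the floor and are not read as a measured rise. Against Health, the CDSCs calls of Ptprc and Mmp8 held in all 16 alternative fits and that of Pecam1 in all 15 in which it was tested. Egfl7 held in 12 of 16 and was lost without CDSCs mouse 2 or Health mouse 3, and Ltf held in 9 of the 14 in which it was tested and was lost without CDSCs mouse 2 or 3 or Health mouse 1 or 3. Tfrc held in 8 of 16 and was lost without BMT mouse 1, CDSCs mouse 3 or any Health mouse, and Gata1 held in 5 of 16 and was lost on leaving out any mouse but CDSCs mouse 1. The call of Mmp8 between CDSCs and BMT held in 12 of 16 and was lost with the 6 mice of the pair alone, with the replicate block, and without BMT mouse 1 or 2. The CDSCs calls of Egfl7, Ltf and Tfrc against Health were also lost with the replicate block. That of Ltf between BMT and Health held in 14 of 15 and was lost without Health mouse 1. The limits given above, on row names and on the CD45 separation, hold for every gene of these lists.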

How the data were processed

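The tables hold 1 column of BM RNA-seq values for each of 3 mice per group. The authors trimmed reads with Trim Galore, aligned them with HISAT2 and counted them per gene with featureCounts, and the counts were deposited as whole numbers. The authors also deposited TPM, made from the counts and gene lengths. The processing notes name GRCm38. The annotation release and strand setting are not given in the sources used here. The methods describe CD45+ and CD45- data brought to equal depth and merged, while the labels describe all marrow cells.

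Counts were tested with edgeR 4.0.16 in R 4.3.3 (filterByExpr, TMM, glmQLFit and glmQLFTest, 9 mice, group as the only factor, two-sided, Benjamini-Hochberg adjustment over 12572 genes). The family sum used rows with a mean of at least 10 counts and had no test. Python 3.11.15, numpy 2.4.6, pandas 2.3.3, scipy 1.17.1 and matplotlib 3.10.9 were used for the rest. The edgeR and DESeq2 (1.42.0) fits were tested on simulated data. Named genes were all 8 members, the 5 genes most like their sum, tested list genes with the lowest p-values, and counted neighbours. The members and lists were chosen with earlier results of these data known. The p-values measure only the spread between these libraries. No libraries were identical: within-group pairs differed by a chi-square of 7.89 to 113 per degree of freedom. The tables had 0 further per-sample columns. Alternative fits are listed in the closing section.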

Additional observations from a re-analysis of the deposited data

How the results depend on the processing

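The 16 alternatives changed the test (DESeq2, or the likelihood ratio test of edgeR), the scaling (no TMM), the filter (none, or 10 counts or more in each mouse), the mice fitted (the 6 of a pair, or 8 with each mouse left out once) or the model (replicate number as a block). The call of Gimap5 between CDSCs and Health was kept in all 16, with log2 fold changes of 1.01 to 1.31. Between CDSCs and BMT, where the reported test called 0 members, 1 member (Gimap5) was called with DESeq2, with the likelihood ratio test and without the filter. These called 706 (5.62%) and 730 (5.81%) of 12572 genes and 1260 (4.46%) of 28221, against 129 (1.03%) of 12572. Differences that were not called changed sign in some settings. For Gimap6 in CDSCs over BMT (reported as -0.01) the value was 0.0040 with DESeq2 and 0.016 with the stricter filter. With a mouse left out, it was -0.19 to 0.29 for Gimap6 and -0.28 to 0.57 for Gimap3 in CDSCs over BMT. It was -0.063 to 0.36 for Gimap6 and -0.074 to 0.38 for Gimap9 in CDSCs over Health, and -0.0023 to 0.65 for Gimap3 and -0.11 to 0.34 for Gimap6 in BMT over Health. The cause was not tested. The family sum with a mouse left out had log2 ratios of 0.35 to 0.77 (CDSCs over Health), 0.15 to 0.73 (CDSCs over BMT) and -0.15 to 0.38 (BMT over Health), the lowest without CDSCs mouse 1, CDSCs mouse 1 and BMT mouse 3. Without Gimap3 the ratio was -0.02 for BMT over Health, 0.65 for CDSCs over BMT and 0.63 for CDSCs over Health. With Gm28053 added, a setting chosen after seeing the data, the ratio of CDSCs over Health was 0.41. No pairing of mice by replicate number was seen, since only 3 of 9 pairs with the same number had a correlation of deviations over 0.1 (range -0.341 to 0.216) and 3 of 9 mice correlated best with their own number. Deviations were taken from means of 3 mice and sum to 0 within a group, so this check cannot exclude a pairing. With the replicate number as a block, 0 (CDSCs over BMT), 1 (CDSCs over Health) and 0 (BMT over Health) members were called, Gimap5 in CDSCs over Health had a log2 fold change of 1.11, and 22, 1507 and 197 of the 12572 genes tested were called in the same order of comparisons. Low counts limit what can be read from the rows Gimap1, Gimap4, Gimap7 and Gimap8, whose highest count was 22. Why these rows were low was not tested.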
